A study of Mus musculus with 9 samples.

Results

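Clock genes, 10 in number, were followed in macrophages of healing mouse skin: Per1, Per2, Per3, Cry1, Arntl, Clock, Nr1d1, Nr1d2, Dbp and Tef. They were chosen by symbol from the deposited count table, which held all 10 members among its 18303 genes. The cells came from wounded skin of wild-type mice of the strain C57BL/6J, taken at day 4 (4 libraries) or day 14 (5 libraries), and were sorted for the surface proteins CD45, CD11b and F4/80. Wounds were dissociated with enzymes, and the sorted cells got no treatment before RNA extraction. The age and sex of the mice are not given in the sources used here. The study compared these early and late wound macrophages by RNA sequencing. The labels do not say whether a library stems from 1 animal or a pool, nor that libraries stem from separate animals, so each p-value reflects only how far these samples spread, and that spread may be technical. The hour of the day at collection is not given in the sources used here.

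The clock is a transcriptional feedback loop that runs in nearly all cells, macrophages included. CLOCK and ARNTL (also called BMAL1) bind E-boxes as a pair and switch on the Per and Cry genes, whose proteins then repress that pair. In a second loop the same pair drives Nr1d1 and Nr1d2, which encode the repressors REV-ERB alpha and beta that act on Arntl, while Dbp and Tef encode related activators that bind D-boxes. Transcripts of most of these genes rise and fall over the day, with Arntl and many, but not all, of the E-box genes at opposite times.

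Library totals ran from 17982633 to 57809918 estimated counts. The counts of day 14 replicate 5 stop partway along chromosome 9 (genes beyond that point held 0.0254% of its counts and 7.18% to 7.93% of those of the others), and the 1504 genes there were left out. All 10 members lie before that point. The 8 macrophage markers were all detected, with a summed level of 16933 to 18925 CPM at day 4 and 17282 to 19636 CPM at day 14. Lyz2 made up most of these sums (means 10718 and 11443 CPM), so they do not show that the other markers stayed level. By the test described below, 6 of the 8 were called, beside 31.0% of all genes tested. Ptprc and Emr1 were higher at day 14, and Itgam, Cd68, Mertk and Fcgr1 lower (Fcgr1 from 310 to 145 CPM). CPM are counts scaled to a common library size, with TMM factors. No 2 libraries of a day were alike within counting noise, with a chi-square of 11.6 to 79.3 for each degree of freedom.

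At day 14, 3 of the 10 clock genes had fallen, and no member had risen. They were Nr1d1, Per2 and Tef, with log2 fold changes from -0.36 to -0.85. The call rests on edgeR's quasi-likelihood test with a Benjamini-Hochberg adjusted p under 0.05. Over all 12288 genes tested, it called 31.0% in either direction, 15.1% as lower and 15.9% as higher, so the members' share of 3 in 10 lies near the background and is no result about the clock genes as a group. The median log2 fold change was -0.20 over the 10 members and 0.01 over all genes tested. In bulk RNA, fewer cells that hold a transcript and less of it per cell cannot be told apart.

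**Figure D1:**
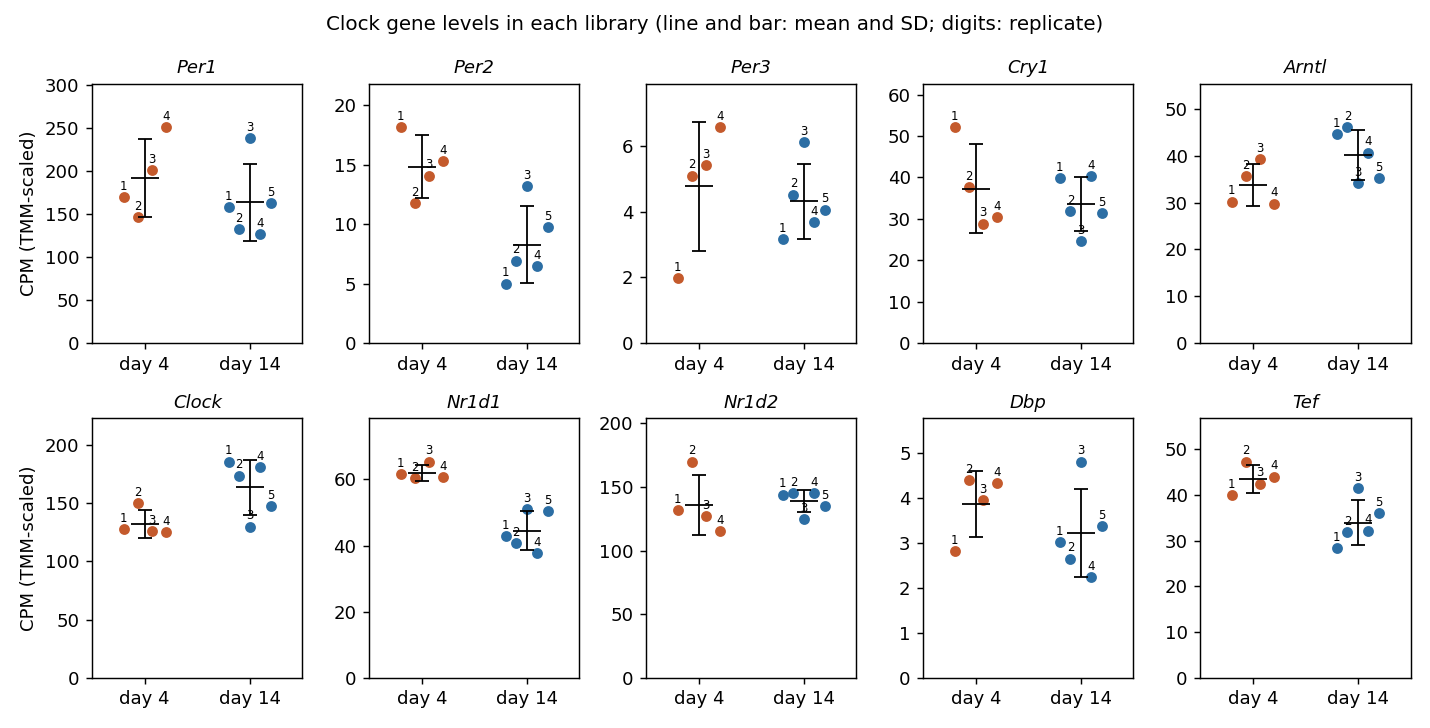
CPM of each clock gene (y axis, linear from 0) in the 4 libraries of day 4 and the 5 of day 14. Points are libraries with their replicate number, the line is the mean and the bar the SD. Nr1d1 is the member whose days do not overlap (60.3 CPM or more against 51.0 CPM or less).

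Nr1d1 encodes REV-ERB alpha, a heme-binding nuclear receptor that represses Arntl, and lies at chr11:98767932-98775377 (GRCm38, minus strand). It was at 61.6, 60.3, 65.4 and 60.6 CPM in the day 4 replicates 1 to 4, and at 42.8, 40.7, 51.0, 37.6 and 50.3 CPM in the day 14 replicates 1 to 5. The day 4 libraries lay within 1.08-fold of each other and all above those of day 14. A separation of this kind and direction was seen for 12.6% of all genes tested. The mean fell from 62.0 ± 2.34 to 44.5 ± 5.94 CPM (SD, n = 4 and 5), 1.39-fold, with a log2 fold change of -0.48 ± 0.10 SE (edgeR adjusted p = 0.003). Its paralog Nr1d2, REV-ERB beta, was at 136 ± 23.6 and 139 ± 8.68 CPM, with a 95% interval of the log2 fold change from -0.20 to 0.27 (edgeR adjusted p = 0.848). Day 4 spanned 115 to 170 CPM for Nr1d2 and enclosed all day 14 values. The difference between the 2 paralogs' changes was not tested. Nr1d1 ends tail to tail with Thra, a thyroid hormone receptor gene on the other strand, and 8.5% of its exon bases are shared. The library kit does not mark strand, so reads there cannot be assigned by strand. The estimated counts of Nr1d1 and Thra were whole numbers in every library. Thra itself was at 23.1 and 23.5 CPM (edgeR adjusted p = 0.905).

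Tef encodes thyrotroph embryonic factor, an activator of D-box genes, and lies at chr15:81802673-81826863 (GRCm38). It was at 39.9, 47.3, 42.5 and 44.0 CPM at day 4 and at 28.3, 31.8, 41.5, 32.2 and 36.0 CPM at day 14. The days overlapped through day 14 replicate 3, which lay above day 4 replicate 1. Tef fell from 43.4 ± 3.12 to 34.0 ± 5 CPM (log2 fold change -0.36 ± 0.11 SE, edgeR adjusted p = 0.0264). The call was lost without day 4 replicate 2 or 4 or without day 14 replicate 1, 2 or 4 (edgeR adjusted p = 0.0573, 0.0521, 0.0659, 0.065 and 0.0576). Dbp, which encodes the D-box activator of the same family, had low counts, from 42 to 241 per library. It was at 2.81, 4.40, 3.96 and 4.33 CPM at day 4 and at 3.02, 2.65, 4.81, 2.24 and 3.37 CPM at day 14. Both the highest and the lowest Dbp value were thus day 14 libraries, and the gene did not pass (log2 fold change -0.27, 95% interval -0.77 to 0.22, edgeR adjusted p = 0.38). The log2 fold change of Dbp was -0.47 without day 14 replicate 3 (edgeR adjusted p = 0.0957) and -0.17 without day 14 replicate 4. Of the exon bases of Dbp, 18% are shared with Sphk2 on the other strand. Sphk2, a sphingosine kinase gene, fell from 54.7 to 37.1 CPM (log2 fold change -0.56 ± 0.14 SE, edgeR adjusted p = 0.0106). In every library the estimated counts of Dbp and Sphk2 were not whole numbers. The part of these shared bases in the Dbp value was not tested.

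The windows from 250 bases before to 50 bases after a start site, taken from RefSeq on GRCm38.p6, hold letters that clock factors are known to bind. Of the 10 members, 9 matched by symbol with 14 windows, and Per2 had none. Both strands were searched for the E-box CACGTG, its variant CACGTT, the D-box TTATGTAA and the half-site AGGTCA of the element that REV-ERB proteins bind. Of all 32851 windows, 7.15%, 4.68%, 0.938% and 16.3% held them. These motifs do not overlap each other where they matched. The windows of Nr1d1 and Tef are shown because these genes fell. Those of Arntl and Per3, which did not pass, are shown as examples of the other 2 motifs. The motifs stand in capitals, in the direction of transcription.
Nr1d1 (chr11:98775328-98775627, minus strand): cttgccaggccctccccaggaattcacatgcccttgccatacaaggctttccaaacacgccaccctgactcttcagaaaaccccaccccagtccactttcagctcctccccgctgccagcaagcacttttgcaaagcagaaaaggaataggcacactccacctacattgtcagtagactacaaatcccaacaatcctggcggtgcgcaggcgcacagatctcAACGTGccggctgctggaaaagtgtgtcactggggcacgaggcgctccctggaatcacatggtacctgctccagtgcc
Tef (chr15:81811164-81811463, plus strand): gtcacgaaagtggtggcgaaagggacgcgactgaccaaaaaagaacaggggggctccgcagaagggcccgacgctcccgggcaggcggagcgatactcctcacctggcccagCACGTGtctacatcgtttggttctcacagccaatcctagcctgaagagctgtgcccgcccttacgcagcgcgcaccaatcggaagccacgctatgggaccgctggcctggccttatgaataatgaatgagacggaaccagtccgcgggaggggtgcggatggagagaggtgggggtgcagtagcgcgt
Arntl (chr7:113207261-113207560, plus strand): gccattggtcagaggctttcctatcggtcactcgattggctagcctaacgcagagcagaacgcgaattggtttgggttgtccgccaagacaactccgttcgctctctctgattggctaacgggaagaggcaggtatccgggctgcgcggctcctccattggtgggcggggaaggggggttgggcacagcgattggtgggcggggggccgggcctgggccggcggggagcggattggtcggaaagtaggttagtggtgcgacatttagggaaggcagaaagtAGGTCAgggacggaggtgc
Per3 (chr4:151044616-151044915, minus strand): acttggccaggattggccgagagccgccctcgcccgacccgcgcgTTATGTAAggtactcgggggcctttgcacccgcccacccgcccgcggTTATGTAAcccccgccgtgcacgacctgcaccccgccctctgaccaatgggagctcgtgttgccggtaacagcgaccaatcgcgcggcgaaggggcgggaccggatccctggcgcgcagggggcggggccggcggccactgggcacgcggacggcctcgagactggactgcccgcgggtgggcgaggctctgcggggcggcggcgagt
The Nr1d1 window carries the variant E-box as its reverse complement 28 bases before the start. The Tef window carries an E-box 138 bases before the start, and the other Tef window has one too, at 127 bases. In the Arntl window the half-site lies at base 32 after the start, and the Per3 window has 2 D-boxes, at 205 and 158 bases before it. The other Arntl window held no match. An E-box was also matched in a window of Per1 and in that of Cry1, which holds the variant E-box too, at 79 bases before the start. Per1 and Cry1 did not pass. Whether a motif goes with a change was not tested, and the windows shown do not tie the 2 together. A half-site was matched in windows of Per1, Clock and Nr1d2. No motif of the 4 was matched in the Dbp window. A match is a run of letters and does not show binding in these cells.

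The Period genes encode the repressor arm of the loop and differed in their values. Per2, at chr1:91415977-91459351 (GRCm38), was at 18.2, 11.8, 14.1 and 15.3 CPM at day 4 and at 5, 6.93, 13.2, 6.47 and 9.78 CPM at day 14. All day 14 libraries but replicate 3 lay below every day 4 library. Per2 fell from 14.8 ± 2.65 to 8.27 ± 3.25 CPM, 1.8-fold, the change of greatest size among the 10 (log2 fold change -0.85 ± 0.24 SE, edgeR adjusted p = 0.0192). The call was lost without day 4 replicate 1 (log2 fold change -0.75, edgeR adjusted p = 0.0559). Per1, which also answers quickly to cAMP and glucocorticoid signals, was at 169, 146, 201 and 251 CPM at day 4 and at 158, 132, 238, 126 and 162 CPM at day 14. The days overlapped over most of their range, and Per1 did not pass (log2 fold change -0.23, 95% interval -0.66 to 0.19, edgeR adjusted p = 0.386). Single libraries moved this value, to -0.41 without day 14 replicate 3 (edgeR adjusted p = 0.0574), to -0.15 without day 14 replicate 4 and to -0.09 without day 4 replicate 4. Per3, the Period gene least needed for the rhythm, was at 1.99, 5.11, 5.44 and 6.6 CPM at day 4, where replicate 1 stood below all other libraries. At day 14 it was at 3.17 to 6.14 CPM (log2 fold change -0.17, 95% interval -0.81 to 0.47, edgeR adjusted p = 0.694). Cry1, which encodes the partner of the PER proteins, was at 52.2, 37.7, 28.8 and 30.4 CPM at day 4 and at 24.6 to 40.3 CPM at day 14 (edgeR adjusted p = 0.58). Its log2 fold change went from -0.14 to 0.05 without day 4 replicate 1, the library with the highest Cry1 value.

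The activator genes had positive log2 fold changes and did not pass. Clock encodes the histone-acetylating partner of ARNTL. It was at 128, 150, 126 and 125 CPM at day 4 and at 186, 174, 130, 181 and 148 CPM at day 14. Replicates 1, 2 and 4 of day 14 lay above all of day 4, and replicates 3 and 5 lay within its range. The log2 fold change of Clock was 0.31 ± 0.11 SE (edgeR adjusted p = 0.0533). It passed without day 14 replicate 3 (0.38 ± 0.09 SE, edgeR adjusted p = 0.00872), without day 4 replicate 2 (edgeR adjusted p = 0.0317), and in the DESeq2 Wald test (adjusted p = 0.0353). Upper-quartile scaling, total counts alone and a filter of 5 CPM in 4 libraries also brought it past the threshold (edgeR adjusted p = 0.0311, 0.0459 and 0.0442). Arntl encodes BMAL1, without which the loop stops. It was at 30.2, 35.7, 39.3 and 29.8 CPM at day 4 and at 44.6, 46.2, 34.2, 40.7 and 35.3 CPM at day 14. The 3 highest values were day 14 libraries, but the ranges overlapped and Arntl did not pass (log2 fold change 0.25 ± 0.12 SE, edgeR adjusted p = 0.123).

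Day 14 replicate 3 was the highest or the lowest library of its day for all 10 members. It was the highest for Per1, Per2, Per3, Nr1d1, Dbp and Tef, and the lowest for Arntl, Clock, Cry1 and Nr1d2. Over all genes tested, this library was at an extreme of its day for 57.3%, against 30.6% to 45.2% for the other day 14 libraries. For Per1, Per2, Per3, Tef, Arntl, Clock and Nr1d2 its level lay within the range of the day 4 libraries, for Dbp above it and for Cry1 and Nr1d1 below it. The 4 neutrophil markers summed (of 7 listed, the other 3 lying beyond the break) were at 1426 CPM in this library and at 116 to 627 CPM in the other day 14 libraries. At day 4 they were at 1515 CPM in replicate 1 and at 482 to 563 CPM in the others. Day 14 replicate 3 was also highest of its day for summed endothelial (70.6 against 30.1 to 46.4 CPM) and keratinocyte markers (11 against 5.02 to 10 CPM). It was lowest of its day for summed macrophage markers (17282 against 17739 to 19636 CPM). Lyz2 made up most of that sum (10089 CPM, against 10787 to 12364 CPM in the other day 14 libraries). Among the single macrophage markers, this library was lowest of its day for Emr1 and Cd68 too, but highest for Csf1r and Fcgr1. No neutrophil marker passed of 5 tested, where 31.0% of all genes were called with all 9 libraries. Their SE were wide, from 0.63 to 0.77, and Mmp8 missed the threshold at a log2 fold change of -1.76 (edgeR adjusted p = 0.0776). Missing the threshold with such errors does not show equal levels on the 2 days. No summed marker was at 0 in all libraries. The part of these cell types in the clock gene values of this library was not tested. Without this library, Nr1d1, Per2 and Tef had log2 fold changes of -0.54, -1.09 and -0.44 (edgeR adjusted p = 0.00129, 0.00163 and 0.00417), Clock passed as higher, and 36.1% of all genes were called.

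**Figure D2:**
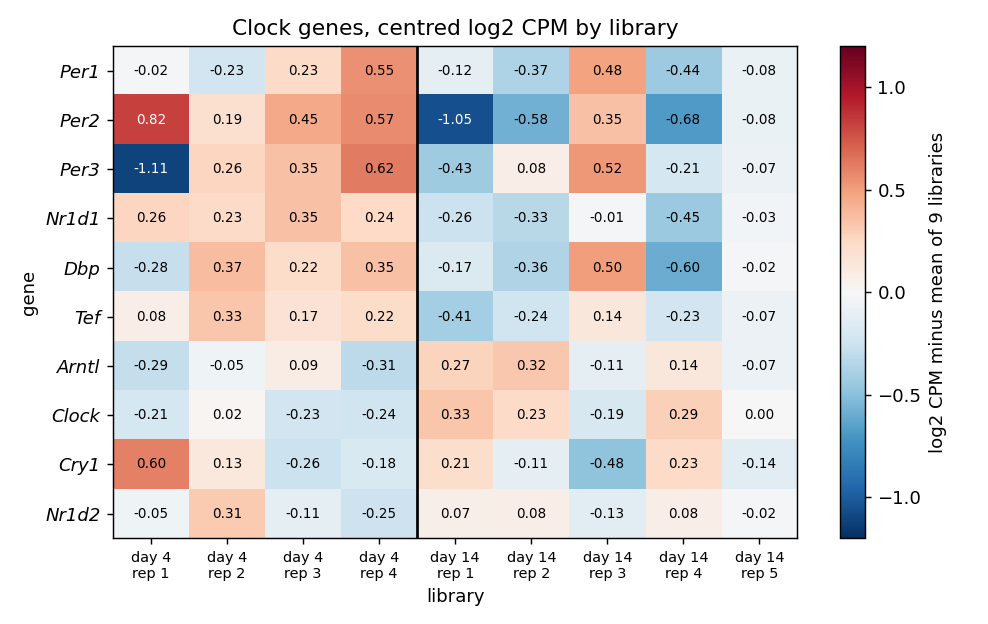
Log2 CPM of each clock gene (rows) minus its mean over the 9 libraries (columns), red above and blue below the mean. In day 14 replicate 3, Per1, Per3 and Dbp are at 0.48, 0.52 and 0.50 and Cry1 is at -0.48. In day 14 replicates 1, 2 and 4, Per2, Nr1d1 and Tef are below 0 and Arntl and Clock above 0.

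Ratios of 2 genes in 1 library do not depend on how libraries are scaled. Their level compares genes of different length, so only the change between libraries can be read. The log2 ratio of Nr1d1 to Arntl, a repressor gene over its target, was at 1.03, 0.76, 0.74 and 1.02 at day 4 and at -0.06, -0.18, 0.58, -0.11 and 0.51 at day 14. The days did not overlap, nor did they for Nr1d1 alone. Day 14 fell into replicates 3 and 5 near day 4 and replicates 1, 2 and 4 far below it. The same 3 libraries had the lowest values of Per1 to Arntl (1.82, 1.51 and 1.63) and of Dbp to Arntl (-3.89, -4.12 and -4.18), where day 14 replicates 3 and 5 lay within the day 4 range. All of these ratios share Arntl, which was itself highest in the same libraries (44.6, 46.2 and 40.7 CPM). They are therefore not separate observations. Per1 to Per2 was at 3.22 to 4.04 at day 4 and at 4.05 to 4.98 at day 14. Dbp to Tef was at -3.50 ± 0.22 and -3.44 ± 0.29, a smaller difference than the SD within each day. Nr1d1 to Nr1d2 overlapped between days (means -1.12 and -1.65), as did Per1 to Per3 (means 5.43 and 5.24). These ratios are described without a test, and the share of all gene pairs that separate the days was not computed.

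**Figure D3:**
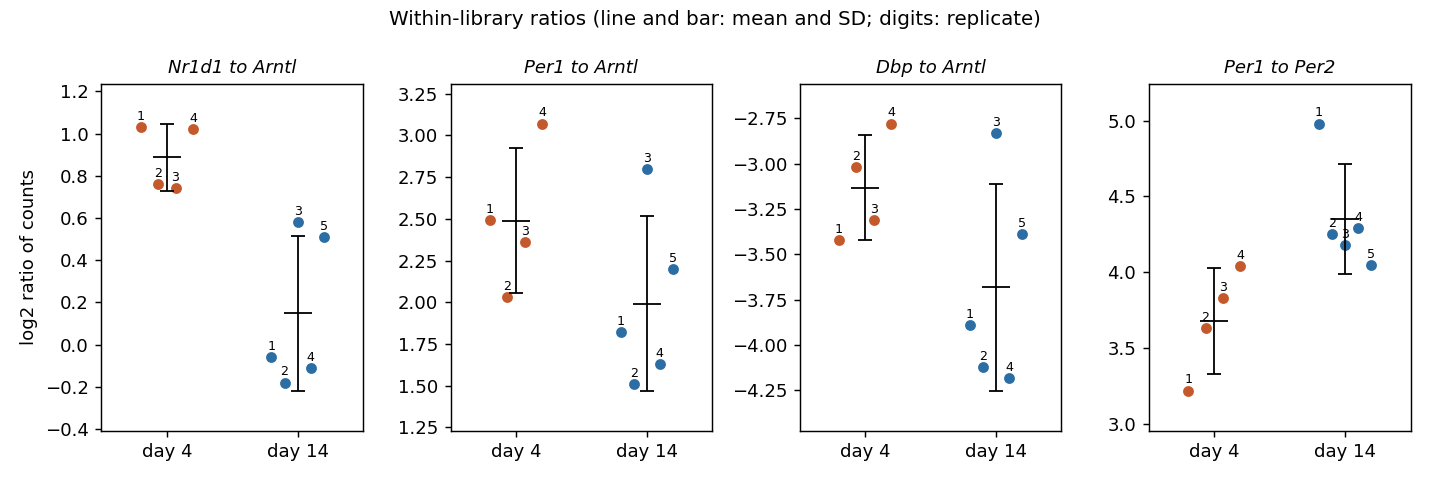
Log2 ratio of the counts of 2 clock genes in each library (y axis) at day 4 and day 14. Points are libraries with their replicate number, the line is the mean and the bar the SD. Nr1d1 to Arntl does not overlap between days (0.74 or more against 0.58 or less), while Per1 to Arntl and Dbp to Arntl do.

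Fibroblast markers were lower at day 14 in the same libraries. Of 12 such markers, 9 fell and no marker rose. The 11 before the break summed to 11709 to 23576 CPM at day 4 and 6449 to 10467 CPM at day 14, and no marker was at 0. Among the day 14 libraries, the sum was highest in replicates 5 and 3 (10467 and 9326 CPM). With the mean log2 CPM of these markers as a covariate, no clock gene was called by edgeR, and 7.55% of all genes were. Nr1d1 was then at -0.33 ± 0.16 SE, Per2 at -0.70 ± 0.40 and Tef at -0.10 ± 0.17 (edgeR adjusted p = 0.254, 0.329 and 0.76). Without the covariate these SE were 0.10, 0.24 and 0.11, so the calls were lost with wider errors as well as smaller values. Dendritic cell markers rose for 8 of 10 (the 9 before the break summed to 272 to 338 and 607 to 690 CPM). Eosinophil markers rose for 4 of 4 tested. Those before the break, which leave out Ccr3 and include the untested Epx, summed to 7.86 to 13.7 and 25.9 to 33.3 CPM. Epx itself had means of 0.0156 and 0.0198 CPM. Keratinocyte markers rose for 3 of 4 tested, at low levels (6 markers summed to 0.665 to 4.99 and 5.02 to 11 CPM). Endothelial markers rose for 2 of 5, and their sums overlapped between days (43.1 to 50.7 and 30.1 to 70.6 CPM). Over all genes tested, 15.9% were called higher and 15.1% lower. Of the T cell markers, Cd4 alone was tested and rose, while Cd3d, Cd3e, Cd3g and Cd8a had mean levels of 0.119 CPM or less. The fibroblast sums did not overlap between days, so the fit with that covariate cannot separate a fibroblast share from the day. The part of these cell types in the clock gene values was not tested.

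Of 8 other tested genes of the clock loops, paralogs and regulators, 2 rose and 1 fell (median log2 fold change 0.08), a share near the 31.0% called over all genes. Bhlhe40 and Bhlhe41 encode the repressors DEC1 and DEC2, which compete with CLOCK and ARNTL at E-boxes, and they went opposite ways. Bhlhe40 was at 592, 516, 500 and 443 CPM at day 4 and at 342, 308, 373, 352 and 340 CPM at day 14 (log2 fold change -0.58 ± 0.10 SE, edgeR adjusted p = 0.000851). Bhlhe41 was at 15.2, 17.2, 17.1 and 13.7 CPM at day 4 and at 48.6, 41.4, 27.8, 50.4 and 33.3 CPM at day 14, a 2.55-fold rise (log2 fold change 1.35 ± 0.17 SE, edgeR adjusted p = 0.000106). Neither gene's days overlapped. Both calls and directions held under all scalings tried, while with the fibroblast covariate Bhlhe40 was at -0.50 with a wider SE of 0.17 and missed the threshold (edgeR adjusted p = 0.11). Tipin, a replication fork gene whose protein pairs with TIMELESS, lies beyond the break and rose from 7.13 ± 0.826 to 9.81 ± 1.13 CPM in the 8 other libraries (edgeR adjusted p = 0.0255). The Tipin call was lost without day 4 replicate 3 or 4 or day 14 replicate 2 or 4 (edgeR adjusted p from 0.0565 to 0.0895). In that fit of 8 libraries 28.6% of genes were called. Cry2 was at 9.68 ± 0.306 and 8.34 ± 1.79 CPM, Nfil3, the D-box repressor, at 278 ± 22.7 and 294 ± 32.8 CPM, and Rora, the activator that opposes REV-ERB, at 5.29 ± 0.652 and 5.62 ± 1.09 CPM (8 libraries). None of these 3 passed. Arntl2, Rorb and Hlf were too low to test, with means of 0.417 CPM or less.

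Of 13 tested genes whose proteins modify clock proteins, 1 rose and 3 fell (median log2 fold change -0.04), again near the 31.0% of all genes. Usp2, a deubiquitinase gene that is itself rhythmic, lies beyond the break. It was at 12.5, 15.5, 11.5 and 11.4 CPM at day 4 and at 5.86, 5.46, 6.58 and 5.6 CPM in day 14 replicates 1 to 4, with no overlap (log2 fold change -1.11 ± 0.14 SE, edgeR adjusted p = 0.000215). With the fibroblast covariate Usp2 was at -0.69 (edgeR adjusted p = 0.0939). Fbxw11, a ubiquitin ligase subunit that marks PER proteins for breakdown, fell from 156 ± 9.99 to 120 ± 8.15 CPM (edgeR adjusted p = 0.00337). Csnk2b of casein kinase 2 fell from 71.4 ± 9.12 to 58.3 ± 3.88 CPM (edgeR adjusted p = 0.0339), a call lost in 6 of the 9 fits without 1 library. Sirt1, an NAD-dependent deacetylase gene, was at 106, 128, 84.4 and 68.7 CPM at day 4 and at 174, 149, 124, 148 and 116 CPM at day 14. It rose 1.47-fold (edgeR adjusted p = 0.0272), and the call was lost without day 4 replicate 3 or 4 and without day 14 replicate 1, 2 or 4 (edgeR adjusted p from 0.0558 to 0.0848). Among the 6 shallower libraries the log2 fold change of Sirt1 went from 0.56 to 0.18. The kinase genes that set the pace of the clock by acting on PER, Csnk1d and Csnk1e, were at 198 ± 5.81 and 198 ± 6.54 CPM and at 56.6 ± 2.98 and 53.1 ± 2.69 CPM. The 95% interval of the log2 fold change of Csnk1d ran from -0.15 to 0.15. Csnk1a1 was at 204 ± 20.8 and 211 ± 26.3 CPM. Usp9x, the gene of highest CPM in this list, was at 388 ± 62.6 and 447 ± 72.0 CPM in the 8 other libraries (edgeR adjusted p = 0.302).

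**Figure D4:**
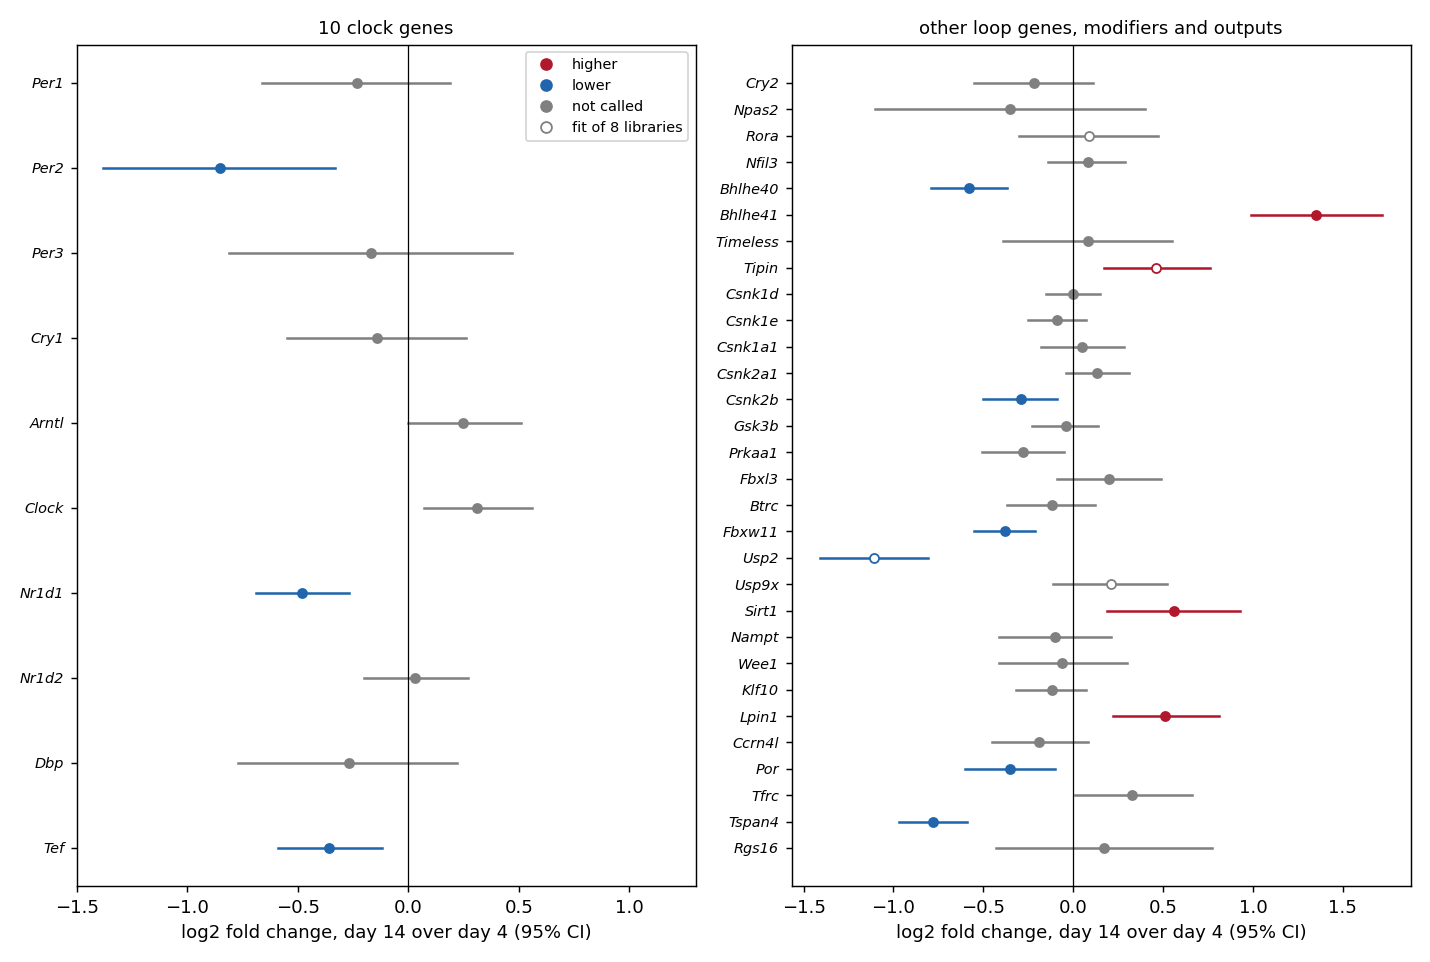
Log2 fold change of day 14 over day 4 with its 95% interval for the 10 clock genes (left) and 30 tested loop genes, modifiers and outputs (right). Red genes passed as higher, blue as lower and grey did not pass, and open points come from the 8 libraries other than day 14 replicate 5. Bhlhe41 at 1.35 and Usp2 at -1.11 lie furthest from 0.

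Of 10 tested genes known as outputs of the clock in other tissues, 1 rose and 3 fell (median log2 fold change -0.11), beside 31.0% called over all genes. Tspan4, a tetraspanin gene, fell from 58.4 ± 4.71 to 34.0 ± 2.85 CPM (edgeR adjusted p = 4.79e-05), and Usp2 is counted here as well. Por, the electron donor of cytochrome P450 enzymes, fell from 321 ± 51.6 to 251 ± 25.3 CPM (edgeR adjusted p = 0.0341), a call lost without day 4 replicate 1 or without day 14 replicate 1, 2 or 4 (edgeR adjusted p = 0.0931, 0.0853, 0.0871 and 0.0541). Lpin1, a phosphatidate phosphatase gene, rose from 46.9 ± 7.85 to 67.1 ± 11.1 CPM (edgeR adjusted p = 0.0131). Nampt, the rate-limiting enzyme of NAD salvage, was at 412 ± 62.2 and 384 ± 69.2 CPM, and Wee1, a cell cycle kinase, at 27.2 ± 5.28 and 26.1 ± 5.33 CPM. Neither passed (edgeR adjusted p = 0.618 and 0.819).

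**Figure D5:**
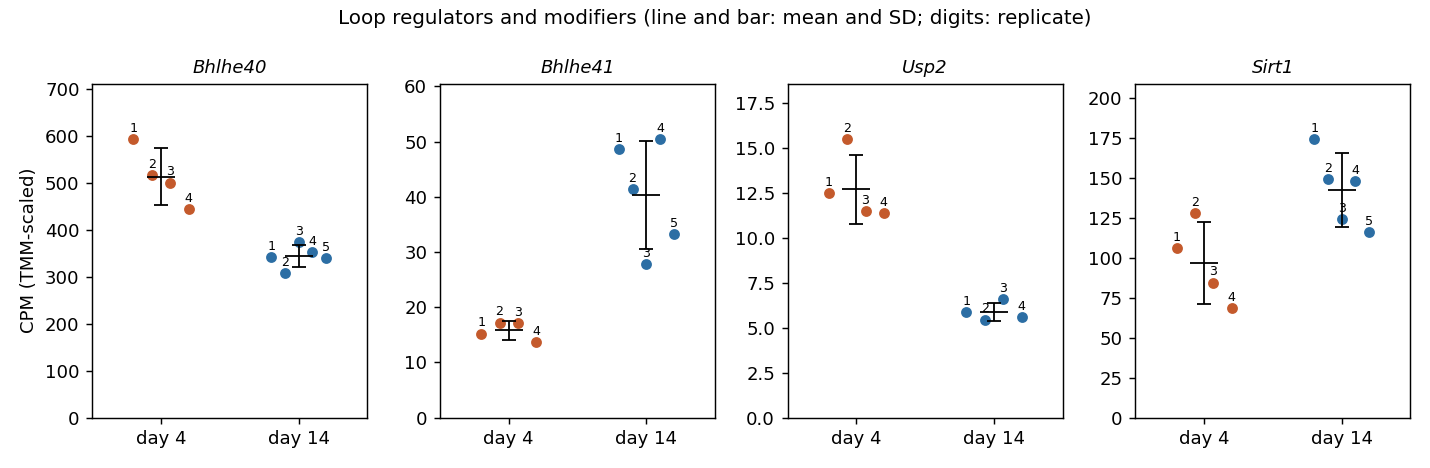
CPM (y axis, linear from 0) of Bhlhe40, Bhlhe41, Usp2 and Sirt1 in each library at day 4 and day 14, with replicate numbers, mean (line) and SD (bar). Usp2 has no day 14 replicate 5 value. Bhlhe40 and Usp2 are lower and Bhlhe41 higher at day 14 without overlap, and Sirt1 overlaps.

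Of 7 genes reported as repressed by REV-ERB or BMAL1 in myeloid cells, 2 rose and 1 fell (median log2 fold change 0.02), where 31.0% of all genes were called. Mmp9, a gelatinase gene, was at 666, 396, 359 and 612 CPM at day 4 and at 50.9, 42.2, 104, 52.1 and 58.3 CPM at day 14, 8.27-fold lower (edgeR adjusted p = 2.39e-05). Cx3cr1, the fractalkine receptor gene, rose from 49.1 ± 8.38 to 70.3 ± 11.1 CPM in the 8 other libraries (edgeR adjusted p = 0.0206), a call lost without day 4 replicate 1 or without day 14 replicate 1 or 2 (edgeR adjusted p = 0.0551, 0.0507 and 0.0683). Ccl2, a monocyte-attracting chemokine gene, was at 568, 392, 314 and 381 CPM at day 4 and at 642, 567, 511, 1223 and 631 CPM at day 14. It passed as higher (log2 fold change 0.79 ± 0.26 SE, edgeR adjusted p = 0.0372), but not in the DESeq2 Wald test (adjusted p = 0.0583) nor without day 4 replicate 2, 3 or 4 or day 14 replicate 1 (edgeR adjusted p from 0.0561 to 0.107). Il6 had means of 106 ± 32.4 and 128 ± 25.1 CPM. Like Ccl8, S100a8 and Tlr4, it missed the threshold.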

How the data were processed

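The deposited main table holds estimated counts by gene symbol for 9 libraries, not normalized. In each library 15.0% to 19.3% of the values are not whole, so they were rounded here. They also deposited normalized values, a signal equal to the counts divided by about 1 factor per library, used only as an alternative. The tools named, per the submitters' processing notes, are Partek 6.6, HISAT2 2.1.0, CASAVA 1.8, DESeq2 and SAMtools 1.4, with build mm10. Their roles, the annotation and any filter are not given in the sources used here. Per the labels' protocols, libraries were made with the Illumina TruSeq RNA kit v2.

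Each column was assigned through the sample number in its header. Genes were placed with RefSeq on GRCm38.p6 (17102 by symbol, 1098 by an older name, 103 not matched). The 1504 genes from Aplp2 onward on chromosome 9, on X and on Y, with unplaced genes of the same pattern, were left out of the fit and the library sizes. Listed genes among them were taken from a fit of all genes in the 8 other libraries. edgeR 4.0.16 in R 4.3.3 was used with TMM, filterByExpr, robust glmQLFit and glmQLFTest, two-sided, with p-values adjusted by Benjamini-Hochberg across the 12288 genes that passed the filter. Standard errors were derived from the F statistic. The script was tested on simulated data. Exon overlaps came from GENCODE on GRCm38.

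The members and gene lists were chosen with earlier results of these data known, so no list was tested. A gene of these lists is not reported here. The text names all 10 members and, from each list, the members that passed (up to 8 by lowest p) and the one of highest CPM. Thra, Sphk2 and other genes named without passing were chosen after their values were seen. The 22 alternatives were scaling by upper quartile, by RLE or by totals alone, the DESeq2 1.42.0 Wald test, limma-voom and limma 3.58.1 on log2 of the deposited normalized values plus 1, dispersion without robust estimation, a minimum of 5 CPM in 4 libraries, no filter on low counts, all genes in the fit, log10 library size or the fibroblast score as a covariate, the 6 libraries under 30000000 counts, and leaving out each library. Leave-one-out values of the ratios were added after seeing the data.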

Additional observations from a re-analysis of the deposited data

Results flagged for a closer look

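Clock was at 150 CPM in day 4 replicate 2, with the other 3 day 4 libraries at 125 to 128 CPM, and this gap made up 0.884 of the range of the group. Of 20 groups of libraries examined (10 members on 2 days), this was the only one in which a library stood apart in this way, and chance flags about 1 in 20. Without this library the log2 fold change of Clock was 0.38 (edgeR adjusted p = 0.0317).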

How the results depend on the processing

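No paired analysis was possible because the labels give the 2 days no shared replicate numbers. Over the 22 alternatives, Nr1d1 passed in 20, Per2 in 19, Tef in 15 and Clock in 6, and Nr1d1, Per2, Tef, Arntl and Clock kept their direction in all of them. The count of members called higher, 0 in the main analysis, was 1 (Clock) with upper-quartile scaling, total counts, DESeq2 or the filter of 5 CPM, and 0 to 1 when 1 library was left out. The count called lower, 3, was 0 with the fibroblast score or in the 6 shallower libraries, and 2 to 3 when 1 library was left out. Of all genes, 1957 passed as higher and 1858 as lower, compared with 531 and 397 with the fibroblast score and 973 and 988 in the 6 shallower libraries. In those 6 libraries, Nr1d1, Per2 and Tef were at -0.45, -0.73 and -0.31 (edgeR adjusted p = 0.064, 0.137 and 0.173) with fewer samples. With the fibroblast score, the calls of Bhlhe41, Mmp9, Tspan4, Sgk1 and Ddit4 held and those of the other 13 named list genes were lost. For some of these the value was as large or larger with a wider SE. Examples are Sirt1 (0.77 ± 0.31 against 0.56 ± 0.17), Csnk2b (-0.48 ± 0.15 against -0.29 ± 0.09) and Por (-0.36 ± 0.20 against -0.35 ± 0.11). For others the value was smaller, also with a wider SE. Examples are Lpin1 (0.25 ± 0.22 against 0.51 ± 0.14), Atf3 (0.43 ± 0.25 against 0.73 ± 0.15) and Ccl2 (0.54 ± 0.45 against 0.79 ± 0.26). A lost call alone does not show that the score accounts for a change, and this was not tested. Log2 fold changes of genes that had not passed changed sign as follows. In the 6 shallower libraries, Per1 was at 0.05, Per3 at 0.36, Nr1d2 at -0.15, Csnk1a1 at -0.10 and Fos at 0.24, and Usp9x was at -0.03 in the 5 of them that hold its counts. With log10 library size, Nr1d2 was at -0.02, Csnk1a1 at 0.00 and Fos at 0.09. With the fibroblast score, Dbp was at 0.08. When 1 library was left out, Cry1 ranged from -0.27 to 0.05, Per3 from -0.42 to 0.01, Nr1d2 from -0.06 to 0.16, Csnk1a1 from -0.02 to 0.1, and Fos from -0.16 to 0.05. The cause was not tested. Csnk1a1 and Fos had been at 0.05 and -0.05. At 2 to 7 CPM, Dbp and Per3 rest on the fewest counts of the 10 members.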

Other observations

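Per1 is also an immediate early gene and a glucocorticoid target, and the other genes of these kinds were lists of their own. Of 10 tested immediate early genes, 1 rose and no gene fell (median log2 fold change 0.18), beside 31.0% called over all genes. Atf3, a stress-induced transcription factor gene, rose from 551 ± 122 to 911 ± 135 CPM (edgeR adjusted p = 0.00392). Fos, the list's gene of highest CPM, was at 1626 ± 343 and 1576 ± 279 CPM. Within day 14, replicate 3 was the highest library for 8 of these 10 genes, Per1 among them, and for 28.7% of all genes tested. Junb was at 976 CPM there and at 413 to 772 CPM in the other day 14 libraries, and Ier2 at 105 against 52.2 to 71.3 CPM.

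The list of glucocorticoid-induced genes also holds Nr3c1, which encodes the receptor and is not counted on as an induced target. Of its 9 genes, 2 rose, Nr3c1 among them, and 2 fell (median log2 fold change 0.09). Over all genes, 15.9% were called higher and 15.1% lower. Ddit4, an inhibitor of mTORC1 that low oxygen also induces, fell from 146 ± 19.8 to 32.8 ± 7.88 CPM (edgeR adjusted p = 2.72e-06), and Sgk1, a kinase gene, from 302 ± 59.8 to 153 ± 11 CPM (edgeR adjusted p = 0.000111). Nr3c1, the glucocorticoid receptor gene, rose from 207 ± 13.0 to 261 ± 21.7 CPM (edgeR adjusted p = 0.0123). Zbtb16, a transcription factor gene beyond the break, rose from 17.7 ± 4.94 to 28.9 ± 5 CPM in 8 libraries (edgeR adjusted p = 0.0178, and 0.0635 without day 14 replicate 1). Dusp1, a phosphatase gene and the list's gene of highest CPM, was at 833 ± 141 and 1048 ± 170 CPM (edgeR adjusted p = 0.0992), and passed without day 14 replicate 4 (edgeR adjusted p = 0.0429). Fkbp5, Tsc22d3 and Klf9 did not pass.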
